A study of Mus musculus with 16 samples.

Results

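The 10 genes described here encode enzymes of glycolysis: Hk1, Gpi1, Pfkm, Pfkp, Aldoa, Pgk1, Eno1, Eno2, Pkm and Ldha. They were taken by symbol from the 43472 genes of the deposited count tables, whatever their values, and all 10 were found and passed the filter on low counts. The libraries came from mouse brain and fell into 4 groups of 4: Prepl knockout (no Prepl, a serine hydrolase), WT kept as its control, PWS-IC deleted (no imprinting centre of the Prader-Willi region), and WT kept as its control. The labels gave the tissue as brain and the genotype as above, with no age, strain, brain region or sex. They did not say that the 4 libraries of a group were 4 animals. The p-values below therefore measure the spread between these libraries, which may in part be technical. The study set each mutant against its own WT to ask what the models share. RNA was captured by its poly(A) tail and read from the 3′ end, and a level is given as CPM, counts per 1000000 reads in genes.

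Glycolysis splits glucose into pyruvate in the cytosol and yields ATP without oxygen, and lactate dehydrogenase interconverts pyruvate and lactate. The brain runs largely on glucose, and its neurons and glia use partly different forms of the same enzymes. Neurons switch enolase from the general alpha form of Eno1 to the gamma form of Eno2 as they mature, astrocytes are rich in aldolase C from Aldoc, and the Pkm gene makes a pair of pyruvate kinases by choosing between alternative exons.

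The members lie on 8 chromosomes of GRCm38, the assembly that mm10 denotes, with coordinates from GENCODE M21. Hk1, the main brain hexokinase, which phosphorylates glucose, spans chr10:62268855-62379908 on the minus strand. Gpi1, the isomerase of the second step, spans chr7:34201330-34230336 on the minus strand. The phosphofructokinases of the committed step are the muscle-type Pfkm at chr15:98092589-98132451 on the plus strand and the platelet-type Pfkp at chr13:6579768-6648777 on the minus strand. Aldoa, the aldolase that splits the sugar, spans chr7:126795234-126800751 on the minus strand. Pgk1, the kinase of the first ATP-yielding step, is X-linked, at chrX:106187100-106203699 on the plus strand. Eno1 spans chr4:150236721-150248879 on the plus strand and Eno2 spans chr6:124760053-124769673 on the minus strand. Pkm, whose product makes pyruvate, spans chr9:59656368-59679375 on the plus strand, and Ldha, the lactate dehydrogenase subunit known for favouring lactate, spans chr7:46841475-46855627 on the plus strand.

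The promoters of 4 members are shown because the results turn on Eno1 and Pkm, because Eno2 is the neuronal counterpart of Eno1, and because an Ldha window held the most matches to a hypoxia-type motif. Each window is the most upstream that RefSeq gives for the gene on GRCm38.p6. It runs from 250 bases before to 50 bases after a transcript start, 5′ to 3′ on the strand of the gene. Capitals mark ACGTG or its reverse complement CACGT, a form of the core letters of hypoxia response elements. The pair overlap in the palindrome CACGTG, where both strands count. Other forms of that core, such as GCGTG, were not searched and are not marked. The windows lie at chr4:150236458-150236757 (plus strand) for Eno1, chr6:124769624-124769923 (minus strand) for Eno2, chr9:59656326-59656625 (plus strand) for Pkm and chr7:46845554-46845853 (plus strand) for Ldha.
Eno1: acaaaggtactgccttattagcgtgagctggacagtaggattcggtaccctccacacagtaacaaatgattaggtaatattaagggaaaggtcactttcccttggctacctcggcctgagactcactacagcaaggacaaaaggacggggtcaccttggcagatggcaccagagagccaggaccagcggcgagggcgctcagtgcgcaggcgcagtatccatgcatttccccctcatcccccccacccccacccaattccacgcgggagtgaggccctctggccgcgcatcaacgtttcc
Eno2: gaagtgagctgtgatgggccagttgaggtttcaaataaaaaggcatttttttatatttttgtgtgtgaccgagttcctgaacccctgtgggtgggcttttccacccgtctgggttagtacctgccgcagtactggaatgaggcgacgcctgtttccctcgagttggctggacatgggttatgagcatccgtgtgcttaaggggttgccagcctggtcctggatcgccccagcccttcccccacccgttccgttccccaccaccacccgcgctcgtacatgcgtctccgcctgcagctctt
Pkm: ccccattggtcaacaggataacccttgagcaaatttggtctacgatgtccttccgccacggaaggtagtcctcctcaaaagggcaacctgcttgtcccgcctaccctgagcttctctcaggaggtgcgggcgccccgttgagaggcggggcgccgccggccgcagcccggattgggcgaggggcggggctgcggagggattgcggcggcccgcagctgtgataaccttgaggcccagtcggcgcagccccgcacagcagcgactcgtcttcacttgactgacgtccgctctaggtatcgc
Ldha: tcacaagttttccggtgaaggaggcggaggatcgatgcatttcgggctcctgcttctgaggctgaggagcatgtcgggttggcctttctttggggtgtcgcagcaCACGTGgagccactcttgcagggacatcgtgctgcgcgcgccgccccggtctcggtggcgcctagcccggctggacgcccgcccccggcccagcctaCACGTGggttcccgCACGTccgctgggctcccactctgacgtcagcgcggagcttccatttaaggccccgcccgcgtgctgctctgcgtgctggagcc
Across all 32851 RefSeq promoter windows of 300 bases, 6447 (19.6%) held the motif on either strand. Among the 20 windows of the 10 members it was found in 8, belonging to 6 members: Hk1, Pfkm, Aldoa, Pgk1, Pkm and Ldha. The Ldha window above held 5 matches counted on both strands, and a second Pkm window, at chr9:59656977-59657276, held 2. A match is a run of letters and not a measured binding site.

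Depth and labels set the precision. Each library held 3477624 to 5852716 reads in genes, and the fewest reads of a member in any library ranged from 75 for Eno1 to 701 for Aldoa. The labels fit the targeted genes: Prepl averaged 1.64 ± 0.453 CPM in Prepl knockout and 34.8 ± 1.35 CPM in its WT (SD, n = 4 each), and Ndn, a gene that the imprinting centre activates, averaged 4.30 ± 1.91 CPM in PWS-IC deleted and 556 ± 11.1 CPM in its WT. Neuronal markers were high, while the mature myelin genes Mog and Opalin stood at 0.6 CPM or less in each of the 16 libraries. Read from Xist and Y-linked genes, the Prepl knockout libraries were all male and their WT held 3 female libraries and 1 male one, whereas both groups of the PWS-IC model held males in replicates 1 and 2 and females in replicates 3 and 4. Sex and genotype are therefore partly confounded in the Prepl model. Each group with libraries of both sexes held more than 1 animal, while for Prepl knockout the number of animals is not known.

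A 3′ count is close to a count per transcript and does not grow with length, so levels can be set in order on this scale, subject to how much of each 3′ end maps uniquely. Aldoa and Pkm were the highest of the 10 in all 4 groups. In Prepl knockout Aldoa averaged 228 ± 24.6 CPM and Pkm 225 ± 21.8 CPM, with overlapping libraries, followed by Hk1 at 152 ± 17.7 CPM and Pfkp at 127 ± 5.65 CPM (SD, n = 4). Ldha, Gpi1 and Eno2 came next, between 92.5 and 96.3 CPM on average, and neighbours among these 3 overlapped. Pfkm and Pgk1 averaged 56.6 and 56.3 CPM in Prepl knockout and also overlapped. Eno1 was the lowest member in each group, at 30.4 CPM in PWS-IC deleted, 16.2 CPM in its WT, 18.04 CPM in Prepl knockout and 20.2 CPM in its WT, and its libraries did not overlap those of the next gene in the order. In the WT of the PWS-IC model the order opened with Pkm at 271 ± 36.8 CPM, whose libraries overlapped those of Aldoa at 249 ± 34.7 CPM. Summed over the 10 genes, the level ran from 1049 to 1244 CPM in Prepl knockout and from 1179 to 1215 CPM in its WT. The same sum ran from 953 to 1199 CPM in PWS-IC deleted and from 1090 to 1328 CPM in its WT, so the groups of each model overlapped.

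**Figure D1:**
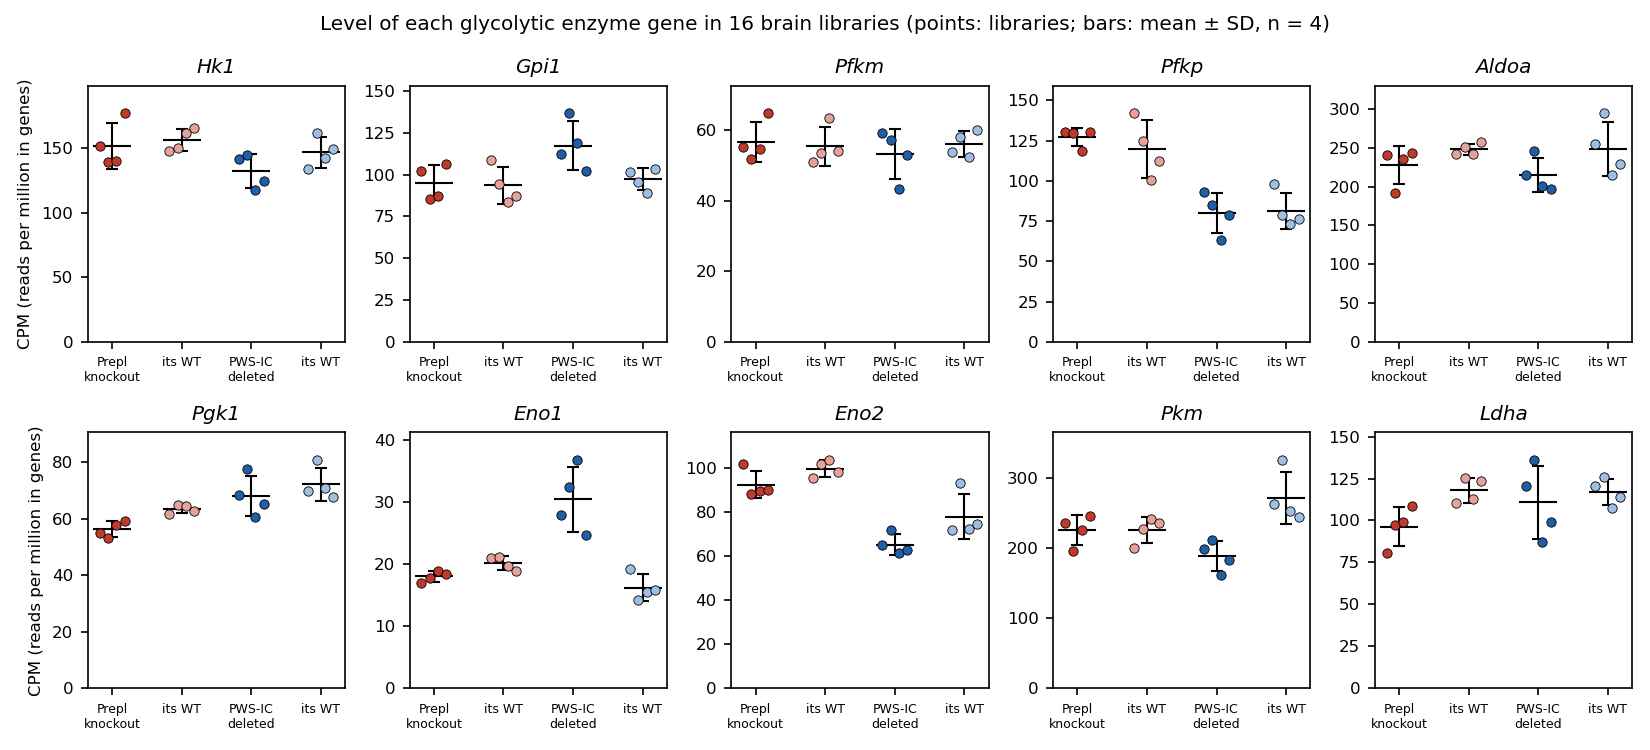
CPM of the 10 genes in each library (points), with the mean and SD of each group of 4 (bars), each panel on its own linear axis from 0. The PWS-IC deleted libraries lie above their WT for Eno1, between 24.7 and 36.8 CPM, and below it for Pkm, between 161 and 211 CPM.

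In PWS-IC deleted brain, Eno1 rose and Pkm fell, and the other 8 members did not pass the test. Eno1 had 27.9, 32.4, 36.8 and 24.7 CPM in PWS-IC deleted, against 19.3, 14.2, 15.5 and 15.8 CPM in WT. Each deleted library exceeded each WT library. The log2 fold change was 0.90 ± 0.157 (SE, 95% interval 0.58 to 1.23), with an adjusted p of 0.00212 in edgeR's quasi-likelihood test with Benjamini-Hochberg adjustment over all genes. Pkm had 198, 211, 161 and 182 CPM in PWS-IC deleted, against 263, 325, 253 and 244 CPM in WT, again with no overlap. Its log2 fold change was -0.52 ± 0.108 (SE, 95% interval -0.75 to -0.30), with an adjusted p of 0.00789 in the same edgeR test. The count cannot say which of the Pkm splice forms changed, because they share the 3′ end. With 2 of 10 called, 1 in each direction, the members stand beside 4.52% of the 13636 genes tested in this comparison (616 genes), with 404 higher (2.96%) and 212 lower (1.55%). Without 1 library that count ran from 362, without PWS-IC deleted replicate 1, to 653.

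Eno2, the neuronal enolase, had 65.0, 72.0, 61.5 and 62.6 CPM in PWS-IC deleted, against 72.1, 93.1, 72.3 and 74.8 CPM in WT. The groups did not overlap, by a margin of 0.1 CPM or less, but the log2 fold change of -0.25 ± 0.109 (SE) did not pass, with an adjusted p of 0.218 in edgeR's quasi-likelihood test with Benjamini-Hochberg adjustment. Gpi1 stood at 112, 137, 119 and 102 CPM in PWS-IC deleted, against 101, 95.6, 88.8 and 103 CPM in WT. Its groups overlapped through the fourth deleted library, and its log2 fold change of 0.28 ± 0.0995 (SE) had an adjusted p of 0.130 in the same edgeR test. Eno1, Eno2 and Pkm were the 3 members of 10 whose groups did not overlap, beside 11.8% of all genes tested. The other 6 members had log2 fold changes between -0.20 for Aldoa and -0.01 for Pfkp, each with a 95% interval that includes 0. Aldoa averaged 215 ± 22.1 CPM in PWS-IC deleted and 249 ± 34.7 CPM in WT, and Hk1 averaged 132 ± 13.2 CPM in PWS-IC deleted and 147 ± 11.8 CPM in WT (SD, n = 4 each). Pgk1, Ldha and Pfkm, at -0.08, -0.07 and -0.06, were nearer to 0. The median over the 10 members was -0.07, beside -0.01 over all genes tested, and 2 of 10 were above 0, beside 47.6% of all genes.

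Several library measures moved with the deletion. The first is the share of all tabled reads that lay outside genes, which was 17.7% to 20.1% in PWS-IC deleted and 11.4% to 13.7% in WT. Mitochondrially encoded mRNA made up 3.95% to 4.45% of reads in genes in PWS-IC deleted and 5.21% to 6.22% in WT. With that first share added to the fit as a covariate, neither was called: Eno1 had 0.30 and Pkm -0.09, both with an adjusted p of 0.999 in edgeR's quasi-likelihood test with Benjamini-Hochberg adjustment. It does not overlap between the groups, so it and the deletion cannot be told apart. In a choice made after seeing the data, Eno1 stood at 0.86 in males alone and 0.95 in females alone, and Pkm at -0.51 and -0.52, with 2 libraries a group. Neither passed in males alone, where the edgeR adjusted p was 0.0583 for Eno1 and 0.0787 for Pkm.

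Cell type markers moved as well, and in bulk tissue fewer cells of a type and less RNA per cell cannot be told apart. The 12 neuronal markers summed to 6856 to 7408 CPM in PWS-IC deleted and 6692 to 7035 CPM in WT, which overlap. By edgeR 0 of these were called and 4 had an unadjusted p under 0.05. Of all genes tested in this comparison, 4.52% were called and 18.2% had an unadjusted p under 0.05. The 9 astrocyte markers summed to 777 to 860 CPM in PWS-IC deleted and 891 to 957 CPM in WT, with 1 called, lower. Of the 8 oligodendrocyte markers 5 were tested and 1 was called, lower, with sums of 94.4 to 106 CPM in PWS-IC deleted and 109 to 120 CPM in WT. Sums of the 7 meningeal markers were 309 to 329 CPM in PWS-IC deleted and 393 to 665 CPM in WT, with 5 called, all lower. Red cell markers summed to 1205 to 1630 CPM in PWS-IC deleted and 1798 to 3972 CPM in WT, with 4 of 6 called, all lower. Of 7 choroid plexus markers tested 3 were called, all lower, of 8 microglial ones 1 was called, lower, and of 7 endothelial ones 0 were called by edgeR, with 0 at an unadjusted p under 0.05. The part of these shifts in the Eno1 and Pkm results was not tested.

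Near-identical sequence bears on the Eno1 count. Its transcripts have 8 close copies elsewhere in the annotation, the best matching at 99.6% over at least 1000 bases. Of these, 7 match at least 100 of its last 500 bases, where the kit reads. Reads that map to more than 1 place are kept in a total that names no gene, and they made up 28.8% to 30.8% of the tabled reads in PWS-IC deleted and 30.2% to 30.9% in WT. The 3 copies with a row of their own summed to 0.10 CPM in PWS-IC deleted and 0.41 CPM in WT on average, and with them added Eno1 averaged 30.5 ± 5.26 CPM in PWS-IC deleted and 16.6 ± 2.21 CPM in WT (SD, n = 4 each). Pkm has 9 copies, of which 7 match at least 100 of its last 500 bases. The 4 Pkm copies with a row of their own held 1 read in all over the 16 libraries, and the rest have no count. Ldha has 21 copies, of which 19 match at least 100 of its last 500 bases, and the best over at least 1000 bases matches at 95.6%. Pgk1 has 4, of which 0 match at least 100 of its last 500 bases, though each matches 74 to 82 of them. Gpi1 has 2 and Aldoa 7, all of which match at least 100 of the last 500 bases. The best Gpi1 copy over at least 1000 bases matches at 98.7%. Hk1, Pfkm, Pfkp and Eno2 have 0. Genes on the opposite strand also overlap Aldoa (Fam57b, at 0.06 on the log2 scale in PWS-IC deleted) and Pfkp (Pitrm1, at -0.00). The Eno1 level is therefore that of its uniquely mapped reads, 75 to 143 per library.

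**Figure D2:**
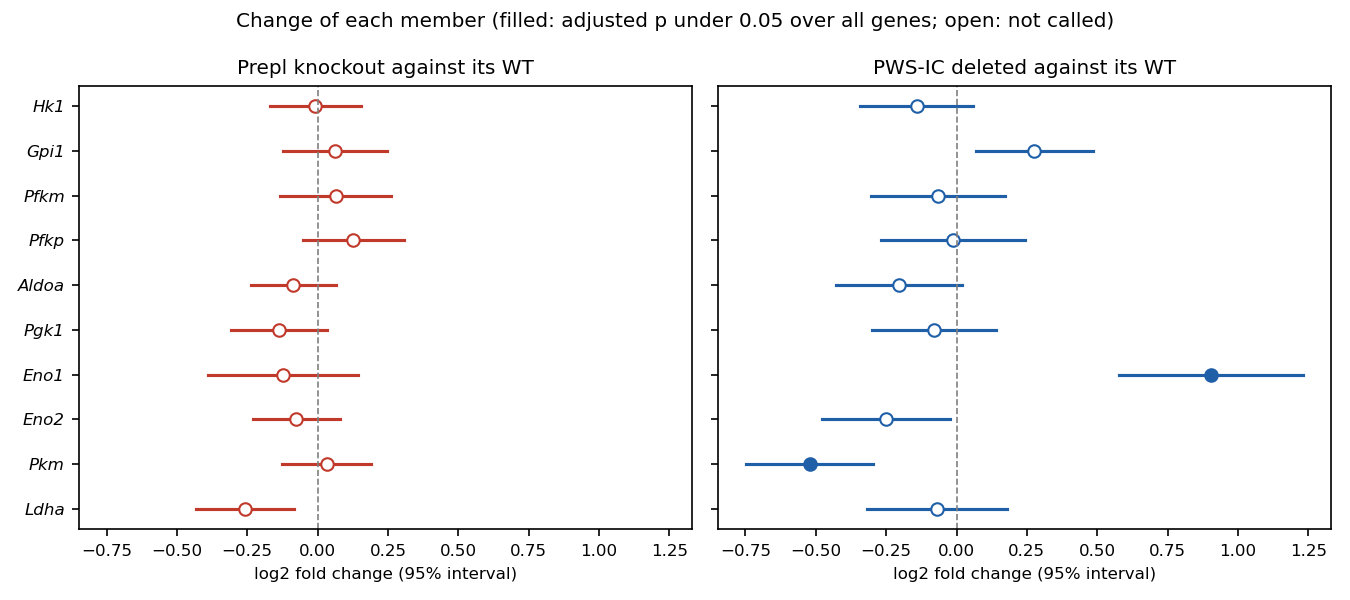
log2 fold change of each member (points) with its 95% interval (lines) in Prepl knockout against its WT and in PWS-IC deleted against its WT, filled where the adjusted p over all genes is under 0.05. Eno1 at 0.90 and Pkm at -0.52 in PWS-IC deleted are the filled points.

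In Prepl knockout brain no member passed the test. By edgeR's quasi-likelihood test 0 of 10 were called at an adjusted p under 0.05 and 1, Ldha, had an unadjusted p under 0.05, and DESeq2 and limma voom called 0 as well. The background was low: 36 of 13722 genes, or 0.262%, were called (26 higher, 0.189%, and 10 lower, 0.0729%), and 9.43% had an unadjusted p under 0.05. Without 1 library the count of genes called ran from 12, without WT replicate 2, to 103, without WT replicate 1. Ldha had 80.4, 97.4, 99.0 and 108 CPM in Prepl knockout, against 111, 125, 113 and 123 CPM in WT. The groups did not overlap, and the knockout libraries were the lower. The log2 fold change was -0.26 ± 0.0848 (SE, 95% interval -0.43 to -0.08), with an unadjusted p of 0.00566 and an adjusted p of 0.280 in edgeR's quasi-likelihood test with Benjamini-Hochberg adjustment. Ldhb, the subunit known for the opposite preference, averaged 71.1 ± 5.58 CPM in Prepl knockout and 69.2 ± 2.85 CPM in WT (SD, n = 4 each).

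Pgk1 was the other member without overlap, with 55.1, 53.2, 57.9 and 59.2 CPM in Prepl knockout, against 61.7, 64.9, 64.7 and 62.7 CPM in WT. Its log2 fold change of -0.14 ± 0.0828 (SE) had an adjusted p of 0.637 in edgeR's quasi-likelihood test with Benjamini-Hochberg adjustment. With a sex term the edgeR log2 fold change was -0.33 for Ldha and -0.12 for Pgk1. Neither was called in that fit, which called 6 genes in all. For Pgk1 the only male WT library stood at 62.7 CPM, above each knockout library. With 1 male WT library, sex and genotype cannot be told apart. The 2 members without overlap stand beside 5.69% of all genes tested. The remaining 8 members had log2 fold changes between -0.12 for Eno1 and 0.13 for Pfkp, and each 95% interval included 0. Eno1 averaged 18.04 ± 0.842 CPM in Prepl knockout and 20.2 ± 1.11 CPM in WT, and Pkm averaged 225 ± 21.8 CPM in Prepl knockout and 226 ± 18.5 CPM in WT (SD, n = 4 each). The Pkm interval, -0.12 to 0.19 on the log2 scale, bounds the change, and the Eno1 interval was -0.39 to 0.14. The median over the 10 members was -0.04, beside 0.00 over all genes tested. Beside Ldha and Pgk1, mitochondrially encoded mRNA made up 6.67% to 8.32% of reads in genes in Prepl knockout and 5.85% to 6.12% in WT, and the neuronal marker sum was 6453 to 7102 CPM in Prepl knockout and 7003 to 7216 CPM in WT. Their part in these values was not tested.

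Set against each other over all 16 libraries, the effects of the 2 mutations differed for Eno1. Its log2 fold change was 1.03 ± 0.199 (SE, 95% interval 0.62 to 1.44) higher in the PWS-IC model than in the Prepl model, with an adjusted p of 0.00585 in edgeR's quasi-likelihood test with Benjamini-Hochberg adjustment. Eno1 was the 1 member called, beside 0.778% of the 14392 genes tested, 0.292% higher and 0.486% lower. For Pkm the difference was -0.55 ± 0.142 (SE), with an adjusted p of 0.0592, so that the fall in PWS-IC deleted is not shown to differ from the value in Prepl knockout. That edgeR call depends on single libraries: without Prepl knockout replicate 2, PWS-IC WT replicate 4 or PWS-IC deleted replicate 2 the adjusted p was 0.0444, 0.0475 and 0.0288. The differences of the other 8 members lay between -0.17 for Eno2 and 0.22 for Gpi1, and each 95% interval included 0.

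The WT groups of the models also differed, which bears on any level set across models. In the PWS-IC WT against the Prepl WT, 3 of 10 members were called, 1 higher and 2 lower, beside 24.4% of the 14392 genes tested, 12.3% higher and 12.1% lower. Pfkp had 97.9, 78.6, 73.0 and 76.2 CPM in PWS-IC WT, against 142, 125, 100 and 112 CPM in Prepl WT, with a log2 fold change of -0.50 ± 0.112 (SE) and an adjusted p of 0.00126 in edgeR's quasi-likelihood test with Benjamini-Hochberg adjustment. Its 3′ end overlaps Pitrm1 on the opposite strand, a mitochondrial peptidase gene, whose log2 fold change was -0.54, and with no stated strand setting the reads of the pair cannot be told apart with certainty. Eno2 averaged 78.1 ± 10.1 CPM in PWS-IC WT and 99.9 ± 3.79 CPM in Prepl WT (SD, n = 4 each), a log2 fold change of -0.31 with an edgeR adjusted p of 0.0145. Pkm averaged 271 ± 36.8 CPM in PWS-IC WT and 226 ± 18.5 CPM in Prepl WT, a log2 fold change of 0.32 with an edgeR adjusted p of 0.0199. The Pkm call was lost without Prepl WT replicate 1 or PWS-IC WT replicate 2 (0.0756 and 0.118), and the Eno2 call without PWS-IC WT replicate 1 or 3 (0.0537 and 0.0580). Pgk1, at 0.24, had an adjusted p of 0.0636 with no overlap, and it was 1 of 4 members without overlap, beside 24.3% of all genes. The models are separate sets of libraries, so model and library set cannot be told apart. Within the PWS-IC model, where Pkm fell, its WT level was thus the higher of the WT levels.

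The isozyme shares show how the forms of an enzyme stood to each other in bulk brain reads, and they are given per library with no test. Which cells the reads came from was not measured. Eno1 made up 28.5%, 29.8%, 36.3% and 27.1% of the reads of Eno1, Eno2 and Eno3 in PWS-IC deleted, against 20.04%, 12.7%, 16.9% and 16.7% in WT. The groups did not overlap, and Eno2 held 60.6% to 68.9% of the family in PWS-IC deleted and 74.8% to 83.2% in WT. In the Prepl model the Eno1 share was 13.4% to 16.7% in the knockout and 15.4% to 17.2% in WT, which overlap. The shares are of uniquely mapped reads, so the copies of Eno1 bear on them too.

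Ldha made up 55.7%, 58.4%, 56.7% and 59.0% of the reads of Ldha and Ldhb in Prepl knockout, against 61.1%, 63.5%, 63.3% and 64.2% in WT. The highest knockout library was below the lowest WT library, with means of 57.5 ± 1.52% in Prepl knockout and 63.0 ± 1.36% in WT (SD, n = 4 each). The share was 66.8%, 64.0%, 56.5% and 60.6% in PWS-IC deleted, against 67.5%, 66.3%, 64.0% and 66.2% in WT, and there the groups overlapped.

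Among the phosphofructokinases Pfkp held 56.9% to 61.4% in Prepl knockout, 52.0% to 60.2% in its WT, 48.1% to 50.6% in PWS-IC deleted and 45.5% to 54.7% in its WT, so each mutant overlapped its WT. Aldoa held 54.7% to 58.6% of aldolase reads in Prepl knockout, 53.9% to 61.9% in its WT, 49.1% to 53.3% in PWS-IC deleted and 51.5% to 56.6% in its WT, with nearly all the rest from the astrocyte-rich Aldoc. Hk1 held 94.5% to 97.2% of hexokinase reads (Hk1, Hk2 and Hk3) in all 16 libraries.

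**Figure D3:**
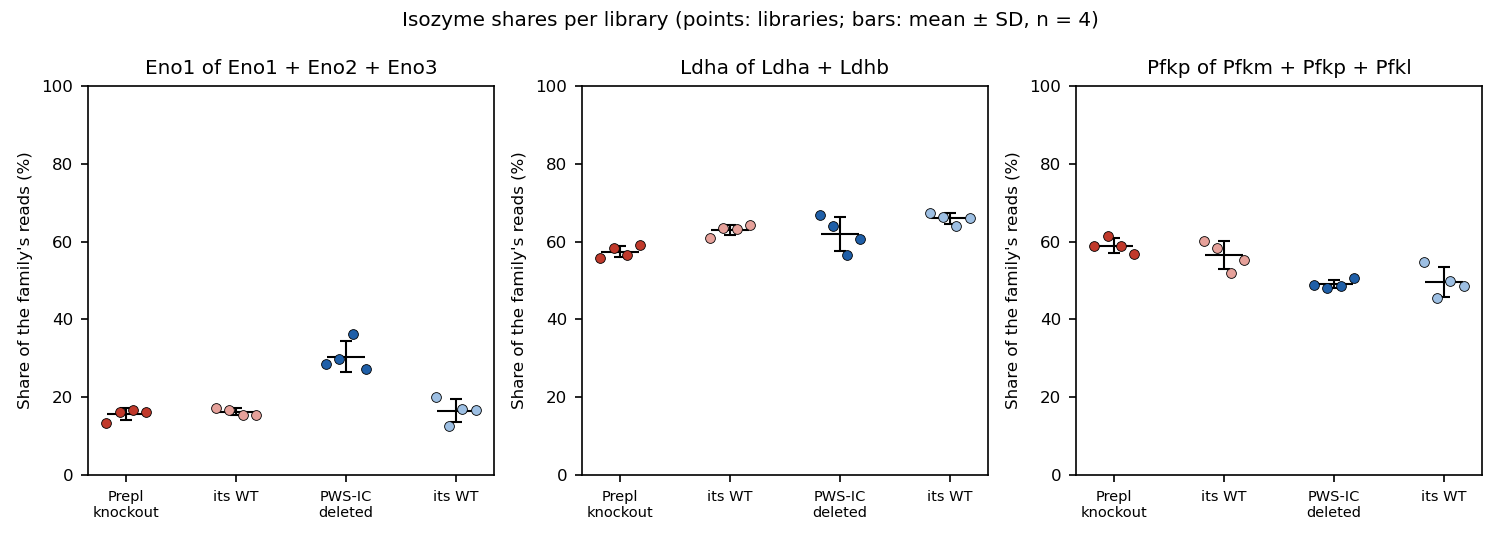
Share of the family's reads held by Eno1, Ldha and Pfkp in each library (points), with the mean and SD of each group of 4 (bars), on a linear axis from 0% to 100%. The Eno1 share is 27.1% to 36.3% in PWS-IC deleted and 12.7% to 20.04% in its WT, and the Ldha share is 55.7% to 59.0% in Prepl knockout and 61.1% to 64.2% in its WT.

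No other gene of the glycolytic steps was called in either mutant. Of the 19 listed, 9 passed the filter in each mutant comparison, and edgeR called 0 of them at an adjusted p under 0.05 in either, with 1 at an unadjusted p under 0.05 in PWS-IC deleted and 0 in Prepl knockout. The median log2 fold change of the 9 was 0.00 in Prepl knockout and 0.02 in PWS-IC deleted. Tpi1, the triose phosphate isomerase, averaged 69.1 ± 14.6 CPM in PWS-IC deleted and 65.8 ± 9.59 CPM in WT, and Pgam1, the phosphoglycerate mutase, averaged 185 ± 23.8 CPM in PWS-IC deleted and 175 ± 16.8 CPM in WT (SD, n = 4 each). Aldoc averaged 205 ± 7.27 CPM in PWS-IC deleted and 217 ± 17.0 CPM in WT, and Ldhb averaged 67.1 ± 7.04 CPM in PWS-IC deleted and 60.3 ± 2.71 CPM in WT. Hk2 and Pfkl had log2 fold changes of 0.02 and 0.20 in PWS-IC deleted and 0.22 and -0.13 in Prepl knockout, none of them called. Gapdh, the dehydrogenase between the aldolase and Pgk1 steps, could not be measured: its 205 close copies, 204 of which match its last 500 bases, left it 95 reads in all 16 libraries and 0.5 to 1.7 CPM. In the WT comparison, Aldoc at 0.36 and Pgam1 at 0.27 were called in PWS-IC WT against Prepl WT, 2 of 10 tested, beside the 24.4% of all genes tested given above.

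Around the pathway, a few genes passed the test in 1 model each, beside 0.262% of all genes tested in Prepl knockout and 4.52% in PWS-IC deleted. Txnip, which binds thioredoxin and restrains glucose uptake, rose in Prepl knockout, with 89.98, 84.7, 91.7 and 155 CPM in the knockout, against 74.5, 51.3, 39.3 and 51.8 CPM in WT. Its log2 fold change was 1.00 ± 0.161 (SE), with an adjusted p of 0.00376 in edgeR's quasi-likelihood test with Benjamini-Hochberg adjustment, and it was the 1 of 7 flux regulators called. In PWS-IC deleted Txnip was at 0.21 ± 0.272 (SE), and the difference of the effects, -0.79, had an edgeR adjusted p of 0.393, so a difference between the models was not shown. The Txnip call in Prepl knockout, where sex is partly confounded, was lost with a sex term (log2 fold change 1.05, edgeR adjusted p 0.479), in 1 edgeR fit of 16 libraries (0.181) and by DESeq2 (0.0757). Of 12 genes for the entry of pyruvate into mitochondria, 2 were called in PWS-IC deleted. Pdhb, a subunit of pyruvate dehydrogenase, fell by 0.40 on the log2 scale, to 88.8 ± 5.48 CPM in PWS-IC deleted, against 118 ± 5.73 CPM in WT (SD, n = 4 each). Mpc2, a subunit of the mitochondrial pyruvate carrier, rose by 0.37, to 157 ± 25.4 CPM in PWS-IC deleted, against 122 ± 6.69 CPM in WT, with an edgeR adjusted p of 0.0495. Tkt, the transketolase of the pentose phosphate pathway, rose by 0.39, to 135 ± 15.3 CPM in PWS-IC deleted, against 104 ± 5.38 CPM in WT, and was the 1 of 8 genes of that list called. Pygb, the brain glycogen phosphorylase, fell by 0.40, to 68.8 ± 2.69 CPM in PWS-IC deleted, against 91.3 ± 9.01 CPM in WT, and was the 1 of 9 glycogen genes called. With the reads outside genes as a covariate edgeR called 4 genes, 0 higher and 4 lower, and none of these calls held: Pdhb was at -0.10, Mpc2 at 0.65, Tkt at 0.22 and Pygb at -0.12, each with an adjusted p of 0.999. Pdhb passed in each fit that left out 1 library, and the other calls rest on single libraries. The edgeR adjusted p was above the threshold for Mpc2 without PWS-IC deleted replicate 1 or 2 (0.117 and 0.162) or WT replicate 1, 3 or 4 (0.0578, 0.128 and 0.142). It was above it for Tkt without PWS-IC deleted replicate 1 or 2 (0.0947 and 0.0518) or WT replicate 3 or 4 (0.0852 and 0.0735), and for Pygb without PWS-IC deleted replicate 1, 3 or 4 (0.0587, 0.0639 and 0.0532).

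Other lists held no call in either mutant comparison. Of all genes tested by edgeR, 9.43% in Prepl knockout and 18.2% in PWS-IC deleted had an unadjusted p under 0.05. The edgeR test called 0 of 18 hypoxia pathway genes and targets in Prepl knockout, with 0 at an unadjusted p under 0.05, and 0 of 17 in PWS-IC deleted, with 1. Hif1a, the oxygen-regulated subunit of the hypoxia factor, had log2 fold changes of 0.03 in Prepl knockout and -0.13 in PWS-IC deleted. For glucose and lactate transport the edgeR count was 0 of 8 in Prepl knockout, with 4 at an unadjusted p under 0.05, and 0 of 9 in PWS-IC deleted, with 2. Slc16a1, a monocarboxylate transporter that carries lactate, had a log2 fold change of -0.42 in both mutants, with no overlap with WT in either, and edgeR adjusted p of 0.250 in Prepl knockout and 0.0597 in PWS-IC deleted. Slc2a1, the glucose transporter of the blood-brain barrier and glia, was at 0.67 in Prepl knockout, with an edgeR adjusted p of 0.105, and at 0.04 in PWS-IC deleted. The side branches and shuttles had 0 of 12 called by edgeR in each mutant, with 0 at an unadjusted p under 0.05.

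**Figure D4:**
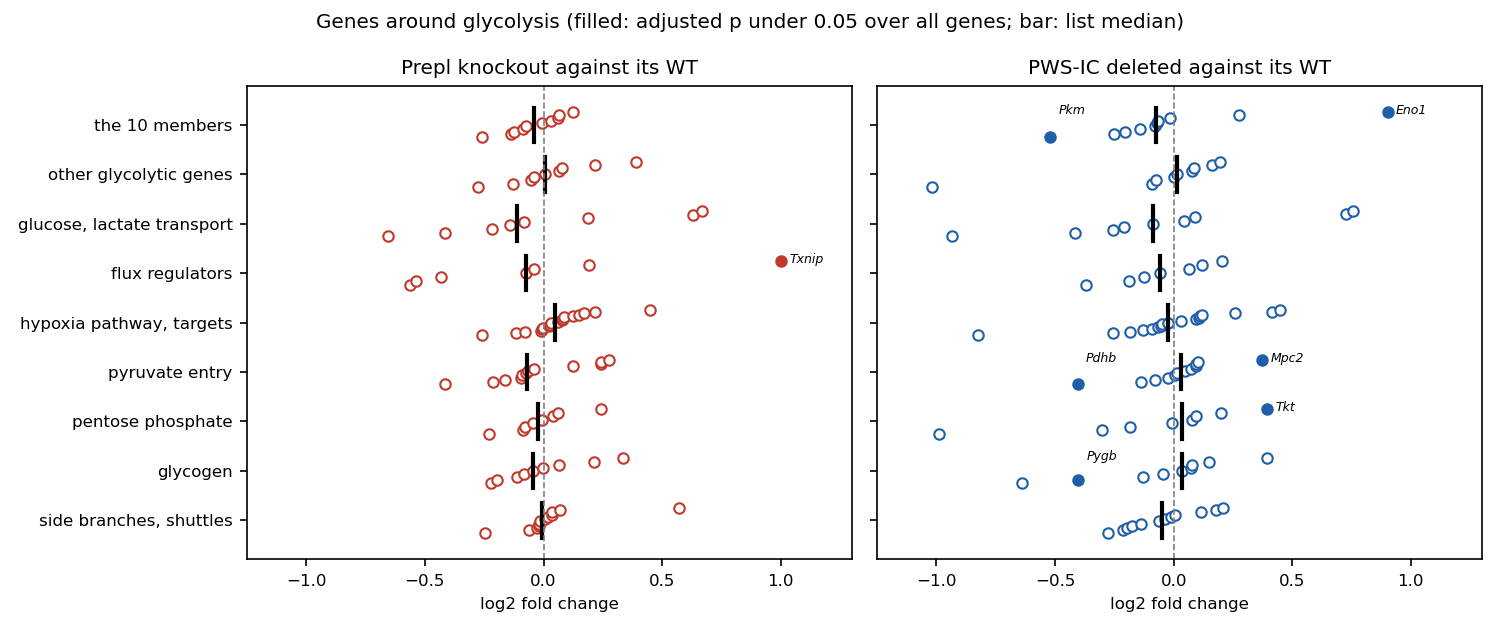
log2 fold change of each tested gene (points) by list, with the median of the list (black bar), in Prepl knockout against its WT and in PWS-IC deleted against its WT, filled where the adjusted p over all genes is under 0.05. The filled genes are Txnip at 1.00 in Prepl knockout, and Eno1, Pkm, Pdhb, Mpc2, Tkt and Pygb in PWS-IC deleted.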

How the data were processed

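RNA of 16 mouse brain libraries was captured by poly(A) tail with the Lexogen QuantSeq 3′ kit, per the labels' protocols. The authors deposited whole-number counts of reads per gene symbol, not normalized, 1 table per library. HISAT2, HTSeq and mm10 are named in the submitters' processing notes; for versions, annotation and strand setting: not given in the sources used here. The 5 total lines that name no gene in each table stayed out of library sizes and tests.

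CPM were computed from the counts. Each mutant was tested against its WT with edgeR 4.0.16 under R 4.3.3: filterByExpr (minimum count 10, minimum total 15), TMM, quasi-likelihood F-test, Benjamini-Hochberg adjustment over all genes tested, threshold 0.05. The SE of a log2 fold change is its size over the root of F. The difference of effects and the WT contrast used 1 fit of 16 libraries. Close copies were found with blastn 2.17.0 among GENCODE M21 transcripts (at least 90% identity over at least 200 bases).

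The members, gene lists and tests were chosen with earlier results of these data known. The text names all members, Prepl and Ndn of the targeted genes, genes of the pathway lists called in a mutant, and Gapdh, Tpi1, Pfkl, Aldoc, Ldhb, Pgam1 and Hk2; beyond the members, it names of the WT contrast only called glycolytic genes and Pitrm1. The rule also held Snrpn and called genes of the marker lists, which are given as counts and sums. Hif1a, Slc16a1, Slc2a1 and the genes that overlap members were named after their values were seen. Alternatives were other normalizations, filters, tools (DESeq2 1.42.0, limma 3.58.1 voom), terms, summed copies and leaving out each library. Fits were tested on simulated data. Replicates of a group differed beyond counting noise (lowest chi-square 2.43 for each degree of freedom), and each library counted as 1 replicate.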

Additional observations from a re-analysis of the deposited data

Results flagged for a closer look

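In each of the 40 groups of 4 libraries (10 genes, 4 groups) the highest and lowest library were compared with the spread of the group, a comparison that chance alone marks in about 1 group of 20. It marked 4. Pfkp in Prepl knockout replicate 3 was at 118.8 CPM, below the other knockout libraries, with a gap to the nearest that was 0.937 of the range. Aldoa in Prepl knockout replicate 2 was at 191.5 CPM, low by 0.847 of the range. Eno2 was high in Prepl knockout replicate 1, at 101.9 CPM (0.85 of the range), and in PWS-IC WT replicate 2, at 93.14 CPM (0.871 of the range). The fifth result is the Eno1 difference of effects, 1.03 on the log2 scale, PWS-IC model over Prepl model, where the test of the difference itself passed.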

How the results depend on the processing

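Eno1 higher and Pkm lower in PWS-IC deleted passed in all 8 fits that left out 1 library (log2 0.82 to 1.00 and -0.59 to -0.41) and in 12 of the 14 other alternatives. The exceptions were a covariate for the reads outside genes (0 members called, 4 genes in all) and male libraries alone (0 members, 121 genes). The covariate put Hk1 at 0.36, Pfkm at 0.38, Aldoa at 0.097, Pgk1 at 0.38, Eno2 at 0.26 and Ldha at 0.42, each turned to higher, and moved Gpi1 to 0.52 and Pfkp to -0.33. Males alone put Pfkm at 0.069, Pfkp at 0.027 and Ldha at 0.070. The cause was not tested. No member was called in Prepl knockout under any alternative. The count of genes called in PWS-IC deleted was 945 with no filter, 999 in 1 fit of 16 libraries, 1119 with a sex term and 362 to 653 without 1 library. In Prepl knockout it was 156, 18, 6 and 12 to 103 under the same settings. For the difference of effects it was 235 with a sex term and 67 to 134 without 1 library, with 1 to 2 members called. The replicate numbers are not said to pair the libraries. Same-numbered libraries correlated at -0.0667 to 0.0523 (Prepl) and -0.0823 to 0.134 (PWS-IC). Of the mutants, 1 of 4 and 2 of 4 correlated best with their own number, which does not settle whether the libraries are paired. With the replicate block 989 genes were called in PWS-IC deleted, and in the difference of effects 2 members, Eno1 and Pkm.

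Members near 0 changed sign. A sex term put Pkm at -0.032 in Prepl knockout, Pfkp at 0.020 and Aldoa at 0.077 in the difference, and Aldoa at -0.018 and Ldha at -0.037 between the WT groups. Leaving out 1 library gave, in Prepl knockout, Hk1 -0.084 to 0.027, Pfkm -0.0014 to 0.13 and Pkm -0.020 to 0.090. In PWS-IC deleted it gave Pfkm -0.13 to 0.027, Pfkp -0.10 to 0.092 and Ldha -0.19 to 0.036. It gave Pgk1 -0.017 to 0.13 in the difference, and Aldoa -0.052 to 0.13 and Ldha -0.012 to 0.085 between the WT groups. Eno1, with 75 to 143 reads per library, has the least depth.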

Other observations

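The 3 copies of Eno1 with a row of their own summed to 1.61 ± 0.783 CPM in Prepl knockout and 2.06 ± 0.147 CPM in its WT, and to 0.10 ± 0.118 CPM in PWS-IC deleted and 0.41 ± 0.342 CPM in its WT (SD, n = 4 each). The lowest Prepl-model library, at 1.17 CPM, was above the highest PWS-IC-model library, at 0.91 CPM. No test was made. The 181 listed copies of Gapdh, which is not one of the 10 genes, summed to 60.9, 69.8, 78.2 and 72.5 CPM in PWS-IC deleted, against 59.5, 55.7, 55.7 and 60.9 CPM in WT, and to 48.4 to 60.4 CPM in Prepl knockout, against 45.7 to 58.3 CPM in its WT. Of the 4727 reads of these rows over all 16 libraries, 2662 were counted to Peli2, a gene listed because a transcript of it matches Gapdh. The sums therefore mix Peli2 with the other rows, and their reads cannot be assigned to Gapdh itself.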
